A study of Mus musculus with 20 samples.

Results

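The data concern 6 genes, Tmem25, Paqr7, Ddc, Gas1, Clec2h and Tmie, in the liver of mice after injury, hemorrhagic shock and resuscitation. They were taken from 18193 genes on the array as those whose annotated symbol is 1 of these 6 names, and the names had been chosen from the levels in these same arrays, as genes that were low after 4.5 h of resuscitation. All 6 had probe sets (15 in all), and all 6 were among the 12832 genes bright enough to be tested. RNA of the whole organ from C57BL/6 males, 8 to 12 weeks old, was hybridised to 20 short-oligonucleotide arrays. Controls were non-manipulated mice (5 arrays), and another group underwent minor trauma (3 arrays). Severe trauma with hemorrhagic shock lasting 1.5 h was followed by no resuscitation (4 arrays, here called shock), by 1 h of it (4 arrays) or by 4.5 h (4 arrays). What the minor trauma consisted of, and when it was sampled, is not given in the sources used here. All values are log2(signal + 6) after quantile normalization, on which the median probe set of every array lay at 4.60. A level is read only against the same probe set on other arrays, since probe sets differ in brightness. In whole tissue, fewer cells of a type and less RNA per cell cannot be told apart.

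The liver identity of the samples was checked on a list of 12 hepatocyte markers. Of these 10 were tested, and none lay at or below the array median throughout a group. Their summed signal was 71314 to 73526 at 4.5 h and 69042 to 73723 in controls. The sums were taken after quantile normalization, which gives every array the same set of values, so their likeness is no check of its own. The array labelled control 5 stood apart from its group. It correlated best with minor trauma array 2 across genes (r = 0.983), and its Cyp2b10, a drug-metabolizing cytochrome P450 gene, read 11.83, whereas the 4 remaining controls read 3.82 to 6.14 and minor trauma 11.45 to 12.36. A poly-A spike-in transcript, dap, was present on 10 arrays and not on 10, and both kinds occurred in every group. Results are therefore given with all arrays and, where they differ, without control 5 and within each set.

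The 6 genes encode unrelated proteins. Paqr7 encodes a membrane progesterone receptor, a surface protein that binds the steroid and signals without entering the nucleus. Gas1 encodes a growth arrest-specific protein anchored to the cell surface, where it helps cells receive Hedgehog ligands. Tmem25 encodes a transmembrane protein of the immunoglobulin superfamily. Clec2h encodes a lectin-like surface protein that is recognised by a receptor of the Nkrp1 family on lymphocytes. Tmie encodes a membrane protein that is required in the inner ear for the mechanically gated channel of hair cells. Ddc encodes aromatic L-amino acid decarboxylase, the enzyme that makes dopamine from L-DOPA and serotonin from 5-hydroxytryptophan. For most of them, a role in the liver's response to injury is not part of textbook knowledge.

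The start sites of the genes differ in base composition, and the windows of 4 genes are shown because the pairs Ddc with Clec2h and Tmem25 with Tmie stand at opposite ends of that range. Windows of 250 bases before to 50 after the start were taken from RefSeq (GRCm38.p6), in which all 6 genes matched, with 8 windows. Tmie held 39 CpG dinucleotides, Tmem25 24, the Paqr7 windows 21 and 7, Gas1 17, the Ddc windows 5 and 2, and Clec2h 0, against a median of 7 over all 32851 windows. Capitals mark any of 8 motifs searched on both strands, which were the TATA box TATAAA, the CCAAT box, the GC box GGGCGG, the E-box CACGTG, the AP-1 site TGACTCA, the D-box TTATGTAA, the nuclear receptor half-site AGGTCA and the glucocorticoid receptor half-site TGTTCT.
Clec2h, chr6:128662135-128662434, plus strand: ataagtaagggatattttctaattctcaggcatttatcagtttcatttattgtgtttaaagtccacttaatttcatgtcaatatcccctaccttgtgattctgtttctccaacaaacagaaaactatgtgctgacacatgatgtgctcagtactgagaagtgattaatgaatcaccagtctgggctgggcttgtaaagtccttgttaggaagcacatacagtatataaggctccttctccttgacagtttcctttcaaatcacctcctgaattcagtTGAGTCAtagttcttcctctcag
Ddc, chr11:11898095-11898394, minus strand: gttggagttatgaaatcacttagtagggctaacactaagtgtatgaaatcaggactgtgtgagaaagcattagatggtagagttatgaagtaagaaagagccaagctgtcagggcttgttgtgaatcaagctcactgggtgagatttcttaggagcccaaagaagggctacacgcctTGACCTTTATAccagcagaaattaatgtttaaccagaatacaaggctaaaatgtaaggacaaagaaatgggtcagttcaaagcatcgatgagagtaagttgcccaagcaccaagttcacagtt
Ddc, chr11:11890359-11890658, minus strand: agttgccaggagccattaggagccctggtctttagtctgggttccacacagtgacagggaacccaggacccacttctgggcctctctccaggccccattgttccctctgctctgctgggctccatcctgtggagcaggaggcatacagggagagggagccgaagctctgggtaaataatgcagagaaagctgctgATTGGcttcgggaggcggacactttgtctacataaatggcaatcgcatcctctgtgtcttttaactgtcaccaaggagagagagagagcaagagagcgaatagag
Tmem25, chr9:44799198-44799497, minus strand: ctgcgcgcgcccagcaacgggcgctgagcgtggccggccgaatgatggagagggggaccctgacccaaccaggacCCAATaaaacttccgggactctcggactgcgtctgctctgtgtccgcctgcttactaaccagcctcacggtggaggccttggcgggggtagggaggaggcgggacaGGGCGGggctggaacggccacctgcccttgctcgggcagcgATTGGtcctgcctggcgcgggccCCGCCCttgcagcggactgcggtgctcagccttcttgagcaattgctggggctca
Tmie, chr9:110880024-110880323, minus strand: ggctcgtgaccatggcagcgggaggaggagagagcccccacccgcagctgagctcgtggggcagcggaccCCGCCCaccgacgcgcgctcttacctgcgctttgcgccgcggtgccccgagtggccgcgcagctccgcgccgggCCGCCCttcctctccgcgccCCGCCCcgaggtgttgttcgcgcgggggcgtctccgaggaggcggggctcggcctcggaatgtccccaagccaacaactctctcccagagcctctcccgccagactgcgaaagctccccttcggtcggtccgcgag
The GC box GGGCGG was found in the Tmem25, Tmie and Gas1 windows and in 1 of the 2 Paqr7 windows, against 35.7% of all windows, and in neither Ddc window nor that of Clec2h. CCAAT was in the Tmem25 and Gas1 windows and 1 Ddc window (37.4% of all windows). The Ddc window with 2 CpG held TATAAA and AGGTCA on the opposite strand, where the matches share 1 base (13.6% and 16.3% of all windows), and Clec2h held TGACTCA (5.2%). The E-box, the D-box and the glucocorticoid receptor half-site were in none of the 8 windows, and in 7.15%, 0.938% and 19.0% of all. A match is a match of letters and no measure of binding.

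After 4.5 h of resuscitation all 6 genes were lower than on any array of any other group. The values that follow chose the genes and are a description without a test. Paqr7 read 7.18, 7.78, 7.60, 7.81 and 6.64 in controls, 7.03, 6.10 and 6.61 after minor trauma, 6.43, 7.21, 6.13 and 7.01 in shock, 6.52, 6.14, 5.91 and 5.78 at 1 h and 3.37, 4.81, 4.34 and 4.25 at 4.5 h. For this receptor gene the arrays of minor trauma and shock overlapped with the controls, and the 4.5 h arrays with no others. Gas1 read 7.01, 8.07, 8.01, 8.15 and 5.76 in controls, 7.10, 7.05 and 7.17 after minor trauma, 6.91, 6.47, 6.64 and 8.00 in shock, 6.60, 6.35, 5.21 and 6.45 at 1 h and 3.23, 4.27, 5.12 and 4.81 at 4.5 h. For Gas1 the highest 4.5 h array lay just under the lowest 1 h array. Tmem25 read 7.98, 8.11, 8.39, 7.93 and 7.04 in controls, 6.79, 5.97 and 6.99 after minor trauma, 6.04, 5.86, 6.52 and 6.49 in shock, 6.47, 5.60, 5.87 and 5.66 at 1 h and 4.36, 4.20, 3.60 and 4.73 at 4.5 h. Every array from injured mice was below every control for Tmem25, and the late arrays formed a further step.

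Clec2h read 8.82, 7.56, 6.57, 6.21 and 5.36 in controls, 5.50, 4.61 and 5.90 after minor trauma, 6.84, 7.38, 7.26 and 7.79 in shock, 7.40, 7.14, 6.70 and 6.67 at 1 h and 2.91, 3.45, 3.13 and 3.89 at 4.5 h. The controls of this lectin-like gene spread over a wide range that covered all shock and 1 h arrays. Tmie read 7.17, 6.95, 6.78, 6.41 and 6.16 in controls, 6.36, 5.82 and 6.45 after minor trauma, 6.93, 7.08, 6.45 and 7.31 in shock, 6.97, 6.15, 6.45 and 6.32 at 1 h and 3.38, 3.80, 3.40 and 3.69 at 4.5 h. Every Tmie array outside the late group read at least 5.82, and the highest late array read 3.80. Ddc read 10.13, 10.52, 10.28, 8.74 and 7.86 in controls, 8.00, 7.10 and 7.83 after minor trauma, 11.01, 10.27, 10.48 and 10.06 in shock, 10.12, 9.46, 10.23 and 9.95 at 1 h and 6.77, 5.93, 5.85 and 7.07 at 4.5 h. The array labelled control 5 was the lowest control for all 6 genes, and for Paqr7, Ddc, Clec2h and Tmie it lay within the range of minor trauma. The highest late array of Ddc lay just under the lowest of minor trauma.

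**Figure D1:**
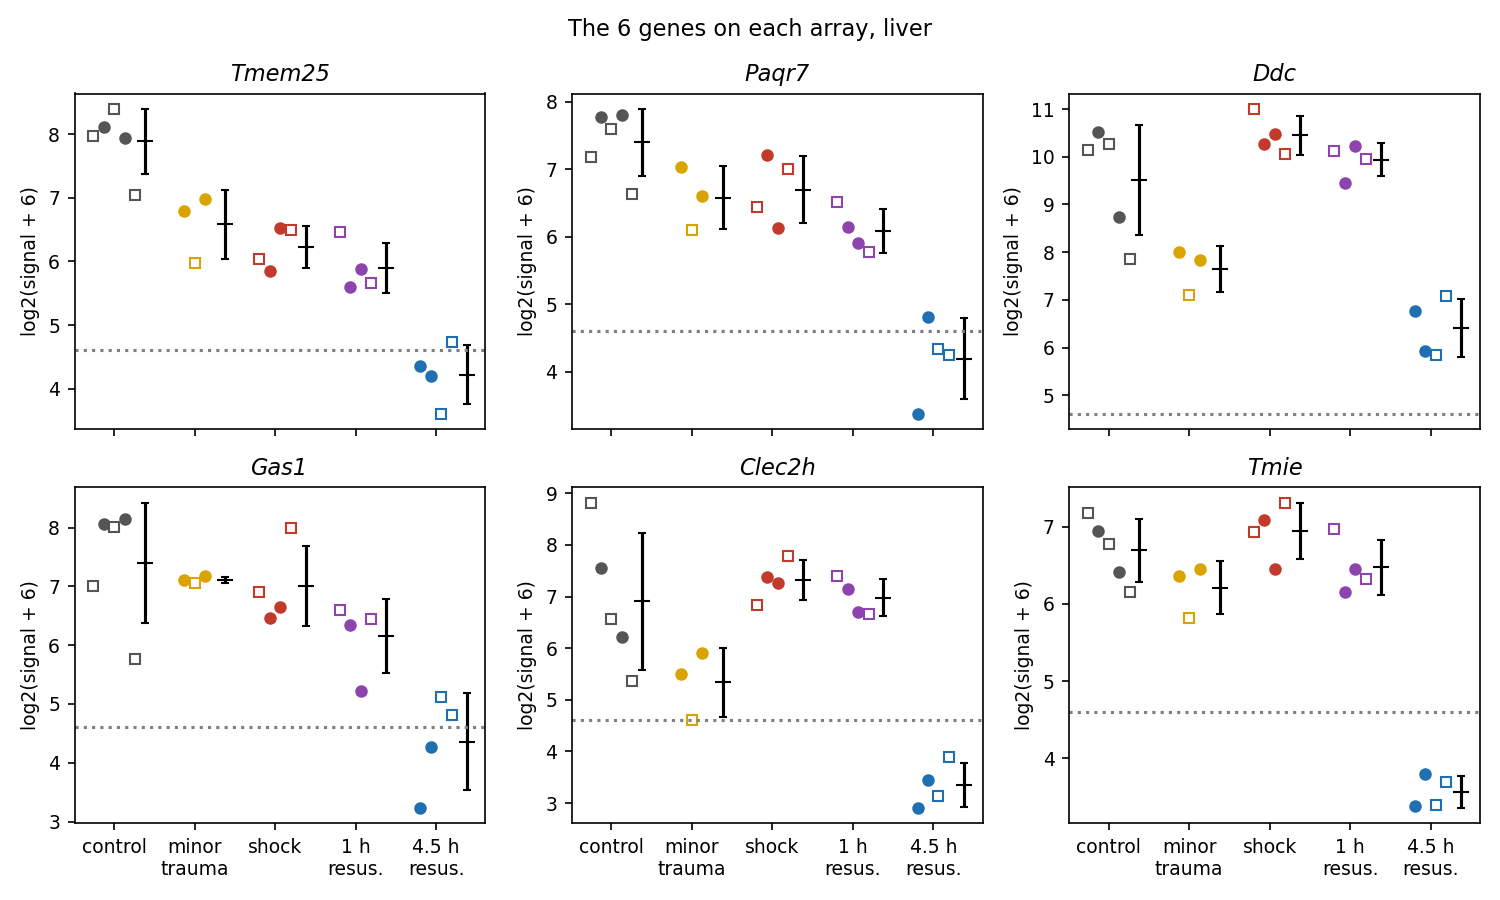
Each panel plots log2(signal + 6) of 1 gene on all 20 arrays in the 5 groups; filled circles are arrays with the dap spike-in, open squares arrays without it, black bars the mean and SD of a group, and the dotted line the array median of 4.60. In every panel the 4 arrays at 4.5 h lie below all others, while minor trauma is low for Ddc and Clec2h and shock is not.

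Against control, Tmem25 averaged 4.22 ± 0.47 at 4.5 h and 7.89 ± 0.51 in controls (SD, n = 4 and 5), 12.7-fold lower. Paqr7 averaged 4.19 ± 0.60 at 4.5 h and 7.40 ± 0.49 in controls (9.22-fold lower). Ddc averaged 6.41 ± 0.61 at 4.5 h and 9.51 ± 1.15 in controls (8.58-fold lower). Gas1 averaged 4.36 ± 0.83 at 4.5 h and 7.40 ± 1.02 in controls (8.23-fold lower). The late means of Tmem25, Paqr7 and Gas1 lay below the array median of 4.60, so their folds rest on dim late signals. With other processing or with subsets of the arrays, the log2 differences ran from -4.12 to -3.01 for Tmem25 and -3.68 to -2.54 for Paqr7. For Gas1 they ran from -4.26 to -1.99, and these ends came from the arrays with dap and those without it. Clec2h averaged 3.34 ± 0.43 at 4.5 h and 6.90 ± 1.33 in controls, and Tmie 3.57 ± 0.21 at 4.5 h and 6.69 ± 0.41 in controls. Both lay at or below the array median on all 4 late arrays, so the differences are bounds, at least 4.92-fold lower for Clec2h and at least 4.25-fold for Tmie, setting the controls against the array median. All 6 were called lower by limma (Benjamini-Hochberg adjusted p no higher than 0.05), as were 23.8% of all genes, and all 6 had no overlap of arrays, as had 18.7%. These counts follow from how the genes were chosen.

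The name under which the genes were brought together, genes lost late in resuscitation, depended on the probe set read. On those that stood for the genes, Clec2h and Tmie were at or below the array median on all 4 late arrays. Ddc stayed above it on 4 of 4 late arrays and Gas1 on 2, and Tmem25 and Paqr7 on 1 each. The second probe sets of Tmem25, Paqr7 and Gas1 were above it on 0 late arrays, and 1 further Clec2h probe set on 1. For Ddc the late level was lower but still well measured.

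Against shock and against 1 h of resuscitation, the late arrays are the same as above, so these values are also a description. Ddc was lower by -4.05 ± 0.44 (log2, SE) against shock and -3.53 ± 0.44 against 1 h. In the same order of comparisons, Paqr7 differed by -2.50 ± 0.31 and -1.89 ± 0.31, Gas1 by -2.65 ± 0.47 and -1.79 ± 0.47, and Tmem25 by -2.004 ± 0.29 and -1.68 ± 0.29. Clec2h and Tmie again gave only bounds, at least 6.55-fold lower than in shock and 5.18-fold lower than at 1 h for Clec2h, and at least 5.06-fold and 3.65-fold for Tmie. All 6 genes were called lower in both, as were 21.6% and 18.2% of all genes, and none had overlapping arrays in either, as was so for 23.3% and 18.5%. The call of Gas1 against 1 h ended within the arrays without dap (-1.59, limma adjusted p = 0.0907). Within the 10 arrays with dap the log2 difference at 4.5 h from control was -4.26 for Gas1, and within the 10 without it -1.99. For the 5 other genes the fitted values in both sets lay between -3.70 and -2.90.

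**Figure D2:**
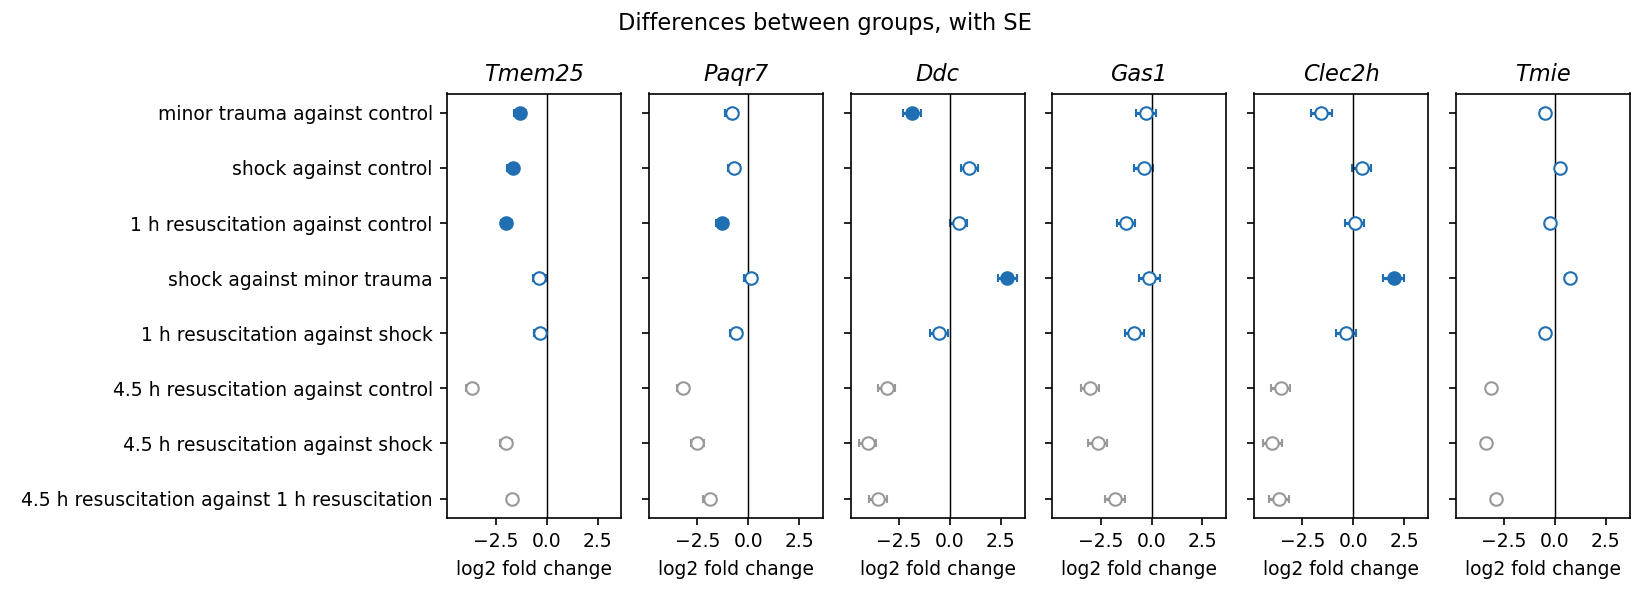
For each gene the points are log2 fold changes with their standard errors in 8 comparisons, first-named group over second. Blue filled points passed a limma adjusted p of 0.05 in the 5 comparisons that do not name the 4.5 h group, and blue open points did not. Grey points are the late comparisons, given without a test, which for Clec2h and Tmie are fitted values of differences known only as bounds. Tmem25, Paqr7 and Gas1 are below 0 in all comparisons with control, while Ddc and Clec2h are below 0 after minor trauma and above 0 for shock against minor trauma.

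The early groups were tested, since the means compared do not hold the late arrays that chose the genes. Those arrays do enter the normalization and the shared estimate of the spread. The controls are among the means compared, so the comparisons with control are not independent of the choice. At the end of shock Tmem25 averaged 6.23 ± 0.33, against 7.89 ± 0.51 in controls (SD, n = 4 and 5), a log2 change of -1.66 ± 0.27 (SE, limma adjusted p = 0.000677). It was the 1 member of 6 called, and 1.08% of all genes were called lower. It was also the only member whose arrays did not overlap, which held for 4.59% of all genes. At 1 h Tmem25 averaged 5.90 ± 0.40 (-1.99 ± 0.27, limma adjusted p = 3.44e-05), and Paqr7 averaged 6.09 ± 0.32, against 7.40 ± 0.49 in controls (-1.31 ± 0.29, limma adjusted p = 0.00499). These 2 of 6 were called lower at 1 h, as were 5.31% of all genes, and neither had overlapping arrays, as was so for 7.64%. Within the sets with and without dap, Tmem25 changed by -1.83 and -1.54 in shock and by -2.27 and -1.74 at 1 h, and Paqr7 by -1.76 and -0.996 at 1 h. Neither Paqr7 value passed, nor did those of Tmem25 without dap (limma adjusted p = 0.0596 and 0.175 for Paqr7, 0.326 and 0.0931 for Tmem25 in shock and at 1 h). Without control 5, the values were -1.87 for Tmem25 in shock, and -2.20 and -1.50 for Tmem25 and Paqr7 at 1 h.

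Gas1 averaged 6.15 ± 0.63 at 1 h and 7.40 ± 1.02 in controls (SD, n = 4 and 5), and this difference of -1.25 ± 0.45 was not called (limma adjusted p = 0.0876). The 2 spike-in sets differed for Gas1, at -2.31 with dap, which passed (limma adjusted p = 0.00682), and -0.40 without. Without control 5, which read 5.76 for this gene, the change was -1.65 and passed (limma adjusted p = 0.00651). Ddc, Clec2h and Tmie were not called at either time. Their differences from control were 0.95 ± 0.42, 0.41 ± 0.46 and 0.25 ± 0.22 in shock and 0.43 ± 0.42, 0.07 ± 0.46 and -0.22 ± 0.22 at 1 h.

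On the probe sets standing for them, all 6 genes had a lower mean at 1 h of resuscitation than in shock. So had 57.9% of all genes. The log2 differences ran from -0.85 ± 0.47 for Gas1 to -0.33 ± 0.29 for Tmem25. Their median was -0.49, against -0.04 over all genes. The further kept probe sets of Tmem25, Gas1 and Clec2h were also lower at 1 h. Those of Paqr7 and Tmie were higher, with means of 4.25 at 1 h and 4.18 in shock for Paqr7. For Tmie they were 5.81 and 5.70 on 1 probe set and 4.91 and 4.61 on the other. None of the 6 was called by limma (adjusted p = 0.487 to 0.901), and 0 of 6 had an unadjusted p under 0.05. In this comparison 1.25% of all genes were called in either direction. The 1 h arrays of Ddc and Clec2h lay wholly within the range of the controls, and those of Tmie did so but for 1 array, at 6.15 against a lowest control of 6.16.

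After minor trauma all 6 genes had a lower mean than in controls, as had 50.3% of all genes. The members were 6 of the 10 genes with the most negative change at 4.5 h against control. The controls are the same arrays here, so this comparison is not independent of the choice of the genes. Differences between the genes were not tested. Ddc averaged 7.64 ± 0.48 after minor trauma and 9.51 ± 1.15 in controls (SD, n = 3 and 5), a change of -1.86 ± 0.45 (limma adjusted p = 0.03), and Tmem25 averaged 6.58 ± 0.54 and 7.89 ± 0.51 (-1.31 ± 0.30, limma adjusted p = 0.0235). These 2 of 6 were called lower, as were 1.37% of all genes. The arrays of Tmem25 did not overlap, as was so for 3.55% of all genes, while those of Ddc did, through control 5. Both calls ended when control 1, 2 or 3, or minor trauma array 2 or 3 was left out (limma adjusted p = 0.0578 to 0.121), and 0 of 6 were then called. Without control 5 they held, at -2.28 for Ddc and -1.52 for Tmem25, and Clec2h (-1.95) and Paqr7 (-1.01) were called as well. With all arrays Clec2h differed by -1.57 ± 0.50, Paqr7 by -0.82 ± 0.32, Tmie by -0.48 ± 0.24 and Gas1 by -0.29 ± 0.49. With and without dap the values were -1.73 and -2.31 for Ddc and -1.13 and -1.83 for Tmem25, with 1 minor trauma array in the second set, and none of the 4 passed (limma adjusted p = 0.0528 to 0.79).

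The means compared in shock against minor trauma hold neither the late arrays nor the controls. Both still enter the normalization and the shared estimate of the spread. Ddc averaged 10.45 ± 0.41 in shock and 7.64 ± 0.48 after minor trauma (SD, n = 4 and 3), 7.03-fold higher (2.81 ± 0.47, limma adjusted p = 0.00111). Clec2h averaged 7.32 ± 0.39 in shock and 5.34 ± 0.66 after minor trauma, 3.94-fold higher (1.98 ± 0.52, limma adjusted p = 0.0202). They were the 2 of 6 called higher, against 4.18% of all genes. For both genes and for Tmie the arrays did not overlap, as was so for 10% of all genes. For Tmie this rested on a narrow gap, with the highest minor trauma array at 6.448 and the lowest shock array at 6.450. Tmie averaged 6.94 ± 0.36 in shock and 6.21 ± 0.34 after minor trauma and was not called (0.73 ± 0.25, limma adjusted p = 0.0651), though it passed without control 5 or without shock array 3 (limma adjusted p = 0.0473 and 0.0366). The Ddc call held with each array left out in turn, whereas that of Clec2h ended without minor trauma array 2 or without shock array 2 or 4 (limma adjusted p = 0.0506 to 0.0737). With and without dap the differences were 2.49 and 3.41 for Ddc and 1.61 and 2.75 for Clec2h, of which the 2.49 passed (limma adjusted p = 0.0359). Tmem25, Paqr7 and Gas1 differed by -0.35 ± 0.31, 0.12 ± 0.33 and -0.10 ± 0.51.

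The order of the group means therefore took more than 1 form. Tmem25 ran from 4.5 h through 1 h, shock and minor trauma up to control, and only its lowest and its highest step were free of overlap between neighbours. Gas1 had the same order and Paqr7 the same with shock and minor trauma exchanged, and in both only the step above 4.5 h was free of overlap. Ddc and Clec2h ran from 4.5 h through minor trauma, control and 1 h up to shock, and Tmie from 4.5 h through minor trauma, 1 h and control up to shock. In these 3 genes too, only the step above 4.5 h was free of overlap. Without control 5, Clec2h at 1 h lay below control (-0.31), which gave it the order of Tmie.

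**Figure D3:**
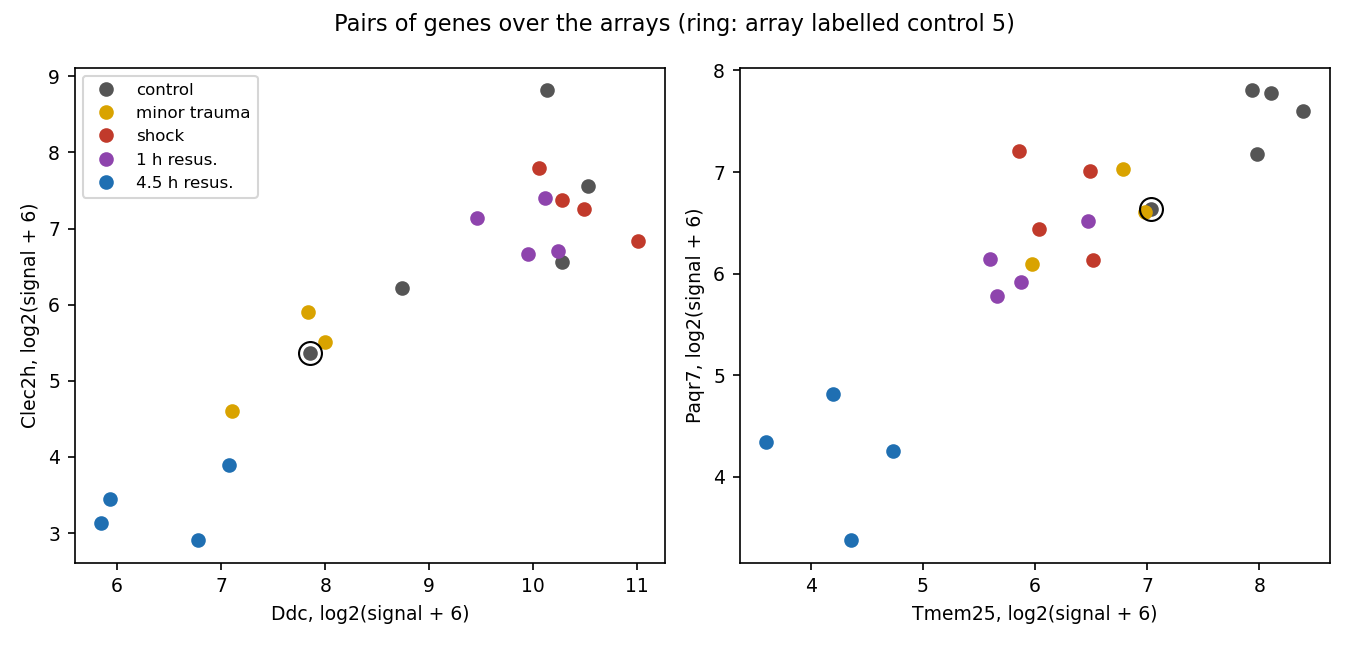
Each point is 1 of 20 arrays, coloured by group, with log2(signal + 6) of Ddc against Clec2h on the left and of Tmem25 against Paqr7 on the right; the ring marks the array labelled control 5. On the left the minor trauma arrays and control 5 lie between the 4.5 h arrays and the rest, and on the right the shock and 1 h arrays lie between the 4.5 h arrays and the controls for Tmem25, while for Paqr7 the shock arrays overlap with the controls.

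Likeness between profiles was described by Pearson's r over the 20 arrays, which share the groups and so the late fall that chose the genes. Clec2h and Tmie (r = 0.923), Ddc and Clec2h (0.916), Paqr7 and Gas1 (0.908) and Tmem25 and Paqr7 (0.897) were the closest of the 15 pairs, and Ddc and Gas1 the least close (0.599). After each group's mean was taken away, r was 0.769 for Clec2h and Tmie and 0.583 for Ddc and Clec2h. It was 0.637 for Paqr7 and Gas1, and 0.342 for Tmem25 and Paqr7. The order of the pairs thus changed. Tmem25 and Ddc, at 0.607 over all arrays, then had 0.688, exceeded only by Clec2h and Tmie, and Paqr7 and Tmie had 0.616. The control array that read lowest for every member was among the arrays used. Over all 20 arrays the members were seldom each other's nearest genes. The closest rank was that of Paqr7 among the genes most like Gas1, at rank 8. The named genes most like Ddc were Tmem150a (0.969), Hsd3b3 (0.963) and Coq8a (0.960), and those most like Clec2h were Hsd3b7 (0.969), a bile acid synthesis enzyme, Adh4 (0.966), an alcohol dehydrogenase, and Hal (0.961), which degrades histidine. Tmie was most like Cyp2d13 (0.979), Hjv (0.974), which encodes a regulator of hepcidin, and Pter (0.972). Tmem25 was most like E2f6 (0.949), Pbld1 (0.937) and Zhx3 (0.937), Paqr7 like Atg5 (0.958), Pycrl (0.955) and Vwce (0.952), and Gas1 like Bcar3 (0.923), Prkacb (0.921) and Atg5 (0.919).

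Other probe sets of the same genes were read on the same arrays. Of the 15, 13 passed the brightness filter. The second Tmem25 probe set averaged 3.88 ± 0.86 at 4.5 h and 6.46 ± 0.60 in controls, the second for Paqr7 3.11 ± 0.46 and 4.99 ± 0.56, and the second for Gas1 4.25 ± 0.24 and 6.25 ± 0.51. The 2 further Clec2h probe sets averaged 4.32 ± 0.70 and 3.62 ± 0.71 at 4.5 h, against 6.30 ± 0.95 and 6.24 ± 1.23 in controls. For Tmie, 1 further probe set averaged 3.72 ± 0.81 at 4.5 h and 6.10 ± 0.45 in controls, and the other 3.69 ± 0.53 and 4.42 ± 0.77, with overlapping arrays. The remaining probe sets of Ddc and Gas1 did not pass the filter, each above the array median on 1 of 20 arrays, and give no reading of either gene.

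**Figure D4:**
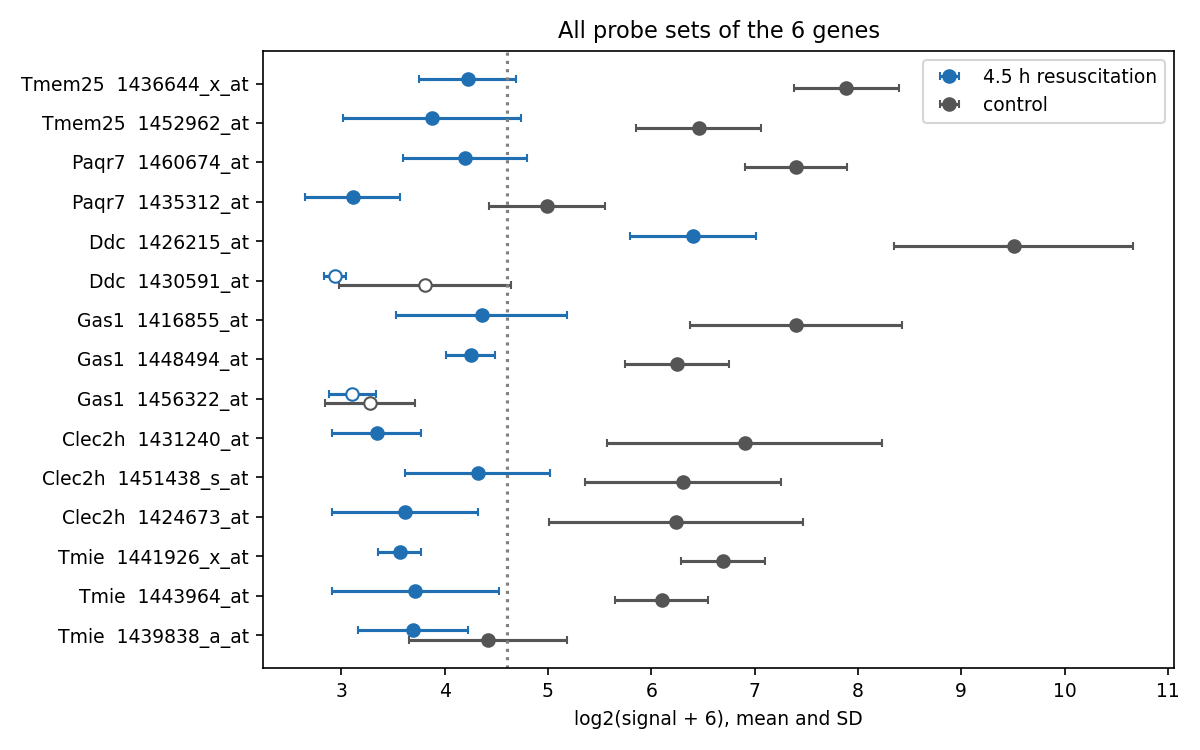
Points are the mean and bars the SD of log2(signal + 6) for all 15 probe sets of the 6 genes, at 4.5 h of resuscitation (blue, n = 4) above control (grey, n = 5); open points mark the 2 probe sets that did not pass the filter, and the dotted line is the array median of 4.60. The blue mean lies left of the grey one in every row, by the least in the rows near or below the dotted line.

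The relatives and pathway partners of the 6 genes were taken from lists that do not hold the members and were drawn up with earlier results of these data known. Of 10 tested genes of the PAQR family and the progesterone receptor membrane components, 0 were called after minor trauma or in shock against control. At 1 h 1 was called lower, against 5.31% of all genes. In shock against minor trauma 2 were called lower, Paqr9 and Mmd (-0.65 ± 0.19 and -0.47 ± 0.15, limma adjusted p = 0.0376 and 0.0472), against 5.38% of all genes. At 4.5 h against control 7 of the 10 were called lower and 0 higher, against 23.8% and 15.1% of all genes, with a median log2 change of -0.55 against -0.09 over all genes. They were led by the adiponectin receptor gene Adipor2 (-1.49 ± 0.17, limma adjusted p = 7.55e-07), Paqr9 (-1.18 ± 0.17, adjusted p = 1.32e-05) and Mmd2 (-1.10 ± 0.23, adjusted p = 0.000723), and the gene lower at 1 h was Mmd (-0.44 ± 0.13, adjusted p = 0.0328), named after its value was seen.

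Of 11 tested genes of monoamine synthesis and breakdown, 6 were called lower and 1 higher at 4.5 h against control (median -0.34), where 23.8% of all genes were called lower. Among them Dbh and Pnmt, which encode the later enzymes on the way from dopamine to adrenaline, fell by 1.78 ± 0.46 and 1.11 ± 0.28 on the log2 scale (limma adjusted p = 0.00365 and 0.00287). Hdc, the histidine decarboxylase that makes histamine by a reaction like that of Ddc, went the other way. It was 4.38-fold higher in shock (2.13 ± 0.34, limma adjusted p = 0.000559), 5.84-fold at 1 h (2.55 ± 0.34, adjusted p = 2.79e-05) and 11.1-fold at 4.5 h (3.47 ± 0.34, adjusted p = 8.94e-08), each against control. No other gene of this list was called in shock or at 1 h against control.

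Of 8 tested Hedgehog genes 2 were called lower at 4.5 h against control and 0 higher (median -0.29), a share close to the 23.8% of all genes. They were the receptor gene Ptch1 (-0.99 ± 0.18, limma adjusted p = 0.000149) and Smo, the signal transducer it restrains (-0.67 ± 0.25, adjusted p = 0.0355). At 1 h 1 was lower, against 5.31% of all genes. This was Sufu, an inhibitor of the pathway (-0.70 ± 0.21, limma adjusted p = 0.0408), named after its value was seen. Of 12 listed relatives and receptors of Clec2h 8 were on the array under their names, and 2 of these were bright enough to be tested. Of these Cd69, an activation marker of lymphocytes from the same gene family, was called higher at 1 h and at 4.5 h against control (limma adjusted p = 0.00743 and 0.00294). Its means were 4.56 at 1 h and 4.50 at 4.5 h, against 3.51 in controls, all under the array median, so no fold is given. Of 4 tested hair cell genes, Myo7a, a myosin, was called lower at 4.5 h (-1.38 ± 0.18, adjusted p = 3.66e-06) and none against control in the earlier groups. Of 13 listed hair cell genes 9 were on the array, and 5 of these were too dim to be tested.

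Markers of other cell types were read in the same late group, in which 23.8% of all genes were called lower and 15.1% higher against control. Of 10 Kupffer cell markers 9 were called lower and 1 higher at 4.5 h against control, with a summed signal of 1612 to 2206 at 4.5 h and 3757 to 5955 in controls. Of 10 sinusoidal endothelial markers 6 were lower and 1 higher (1806 to 1979, against 2531 to 3473), and of 13 stellate cell and fibroblast markers 3 were lower and 0 higher (3665 to 3752, against 3673 to 4828). Of 7 neutrophil markers 7 were higher (4106 to 4727, against 85.3 to 392), of 6 T and NK cell markers 3 were higher (893 to 1176, against 114 to 188), and of 3 cholangiocyte markers 2 were higher (81.5 to 145, against 51.3 to 67.6). Of the 10 hepatocyte markers 3 were higher and 2 lower. At or below the array median on every control array were 2 of the 7 neutrophil, 1 of the 3 cholangiocyte and 1 of the 13 stellate cell and fibroblast markers. Of the 7 neutrophil markers 2 were called higher after minor trauma (260 to 566, overlapping with controls). In shock 6 were called higher (509.7 to 2381), and at 1 h 7 were (2812 to 4412). Of all 12832 genes tested, 441, 399 and 1272 were called in either direction in these comparisons with control, in that order. The part of these shifts in the levels of the 6 genes was not tested.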

How the data were processed

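The deposited values are intensity signals, 1 per probe set and array on a linear scale, made by the authors with MAS5 (per the submitters' processing notes, version not given in the sources used here). Per the labels' protocols, liver RNA was extracted with TRIzol and primed with oligo-dT. The signals were not scaled between arrays (medians 14.0 to 29.1), so log2(signal + 6) was quantile normalized. Left unnormalized, all genes shifted by a median of 0.20 after minor trauma and -0.27 at 4.5 h against control (log2). Probe sets above their array's median on at least 3 arrays were kept, only those with 1 annotated gene were used (34945 of 45101), and the brightest stood for the gene. Symbols were updated through RefSeq.

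Groups were compared with limma 3.58.1 in R 4.3.3 (data.table, version 1.17.8), with 1 model of 5 group means over 20 arrays, an intensity trend, and Benjamini-Hochberg adjustment within each comparison over 12832 genes; calls needed an adjusted p no higher than 0.05. The script was tested on simulated data. The labels do not say that arrays of a group come from separate mice, so p-values measure the spread between arrays, which may be technical, and the number of arrays limits the precision. A group at or below the array median on every array gives only a bound. The members and gene lists were chosen with earlier results of these data known. Named genes were the members, up to 3 genes of each list with the largest called change at 4.5 h, and the 3 genes most like each member (clone and locus names left out). Alternatives changed the scaling, pseudocount, filter, probe set choice, fit and arrays. Same-numbered arrays were checked for pairing: their deviations from the group means correlated above 0.1 in 3 of 36 pairs, so the numbers were not taken to pair mice. Figures used python 3.11.15, matplotlib 3.10.9, numpy 2.4.6 and pandas 2.3.3.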

Additional observations from a re-analysis of the deposited data

How the results depend on the processing

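All 594 recomputed late differences of the 6 genes (3 comparisons, 33 alternatives) stayed below 0, between -5.00 and -1.22. All 6 stayed called in each, except that 5 were called at 4.5 h against 1 h without dap (Gas1, limma adjusted p = 0.0907). Both results follow from how the genes were chosen and are a description without a test. With all arrays 23.8%, 21.6% and 18.2% of all genes were called lower at 4.5 h against control, shock and 1 h. Of 990 recomputed early differences 928 kept direction and side of the threshold, 27 lost and 15 gained a call, and 20 changed sign, none of them called. Of the 6 genes, 2 were called after minor trauma against control. This was 1 with values as deposited, with the mean of the kept probe sets and without the intensity trend, 0 within either spike-in set, and 0 to 4 with single arrays left out. For shock against minor trauma, 2 became 1 with dap, 0 without it and 1 to 3 with single arrays left out. Without dap the 1 called in shock and the 2 called at 1 h became 0. Each spike-in set holds 10 arrays, and the cause of the other changes was not tested. Sign changes were in Gas1 without dap (0.13 after minor trauma, 0.53 in shock, 0.40 for shock against minor trauma), where the mean of probe sets gave 0.036 and leaving out single arrays -0.43 to 0.076 for shock against minor trauma. For shock against minor trauma Tmem25 was 0.30 without dap, and Paqr7 -0.13 as deposited, -0.029 with median centring, -0.10 with array weights, -0.15 with dap and -0.13 to 0.34 with single arrays left out. Clec2h at 1 h against control was -0.068 with array weights, -0.31 without both control 5 and minor trauma array 3, and -0.31 to 0.55 with single arrays left out. With the replicate number as a block, in which control 5 is alone and carries no weight, Clec2h was -0.31 there, and 3, 1, 3, 2 and 0 genes were called in that order for minor trauma, shock and 1 h (each against control), shock (against minor trauma) and 1 h (against shock). Counts over all genes ranged from 0 to 1223 for minor trauma (441 with all arrays), 53 to 758 for shock (399), 290 to 1901 at 1 h (1272) and 2643 to 5703 at 4.5 h (4996) against control, 3 to 1806 for shock against minor trauma (1226) and 1 to 412 for 1 h against shock (160).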
